A study of Homo sapiens with 5 samples.

Results

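The mitochondrial ribosome and RNA processing genes are the nuclear genes for ribosomal proteins of the mitochondrion, whose symbols are MRPL or MRPS followed by digits, together with HSD17B10, TRMT10C, KIAA0391, TFAM, POLRMT, TFB1M and TFB2M. By this rule on gene names, 82 of the 20026 genes listed in every sample were members, of which 49 had an MRPL symbol, for the large subunit, and 26 an MRPS symbol, for the small subunit. Another 3 encode mitochondrial RNase P and 4 serve transcription of mitochondrial DNA. The samples were HCT116 cells, a human colorectal carcinoma line. The 2 pLKO controls had been infected with the empty pLKO.1 lentiviral vector, and the 3 shELK4 samples with lentivirus carrying an shRNA against ELK4. The names shELK4_1, shELK4_2 and shELK4_3 match those of the study's 3 hairpins. Each of these samples is therefore taken here to carry a different one. All cells were selected with puromycin, so stable pools under selection were compared throughout, and each hairpin stands on a single sample. Loss of ELK4 and the presence of any hairpin in place of an empty vector cannot be told apart. The comparison asks which of these genes change when the ETS transcription factor ELK4 is depleted, and whether HSD17B10 and MRPS7 move with the rest of the genes.

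Mitochondria keep a small genome of their own, which is transcribed by the polymerase POLRMT with the help of TFAM, a DNA packaging and promoter factor, and TFB2M, which opens the promoter. TFB1M is a related protein that methylates the ribosomal RNA of the small subunit. The long transcripts are cut at the tRNAs that punctuate them. RNase P makes the cut at the 5′ end of each tRNA, and in human mitochondria it is built from protein alone, namely the methyltransferase TRMT10C, the dehydrogenase HSD17B10 and the nuclease KIAA0391, which is now called PRORP. HSD17B10 also works outside RNase P, as an enzyme of isoleucine breakdown. The mRNAs are then translated by the mitochondrial ribosome, whose protein subunits are all made from nuclear genes and imported.

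The promoters of HSD17B10, MRPS7 and TRMT10C are shown because the factor depleted here binds DNA, and because HSD17B10 passed the test and its RNase P partner TRMT10C did not. Each runs from 250 bases before the start of transcription to 50 bases after it, 5′ to 3′ along the gene, as RefSeq gives it on GRCh38.p14. HSD17B10 lies on the minus strand (chrX:53434327-53434626), MRPS7 on the plus strand (chr17:75261629-75261928) and TRMT10C on the plus strand (chr3:101561618-101561917). Capitals mark the ETS core CCGGAA, the longer ELK4 motif CCGGAAGT that contains it, and the GC box CCCCGCCCC, each sought on both strands.
HSD17B10: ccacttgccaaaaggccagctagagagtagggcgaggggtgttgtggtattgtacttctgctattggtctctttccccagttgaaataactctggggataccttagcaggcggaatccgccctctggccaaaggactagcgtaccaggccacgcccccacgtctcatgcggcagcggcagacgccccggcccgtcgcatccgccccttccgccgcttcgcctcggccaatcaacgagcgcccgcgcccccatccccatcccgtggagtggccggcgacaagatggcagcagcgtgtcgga
MRPS7: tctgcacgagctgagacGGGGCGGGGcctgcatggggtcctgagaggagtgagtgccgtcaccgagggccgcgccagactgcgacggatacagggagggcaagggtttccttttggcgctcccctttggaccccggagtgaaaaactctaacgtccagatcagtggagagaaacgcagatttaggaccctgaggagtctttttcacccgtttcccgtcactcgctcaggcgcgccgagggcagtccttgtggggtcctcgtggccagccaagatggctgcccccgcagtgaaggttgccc
TRMT10C: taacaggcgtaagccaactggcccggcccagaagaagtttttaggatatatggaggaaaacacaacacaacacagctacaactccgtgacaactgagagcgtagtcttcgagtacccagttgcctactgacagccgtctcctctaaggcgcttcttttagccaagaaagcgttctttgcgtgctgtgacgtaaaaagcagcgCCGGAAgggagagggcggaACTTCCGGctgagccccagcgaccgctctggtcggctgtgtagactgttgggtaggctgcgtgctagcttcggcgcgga
The HSD17B10 window shown, 1 of 2 that RefSeq gives, held none of the 3 words, and that of MRPS7 held a GC box at position −233, on the minus strand. The TRMT10C window held an ETS core at position −48 and, on the opposite strand, an ELK4 motif at position −29.

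The ETS core and the ELK4 motif were more common among the members than among tested genes, and the GC box was less so. A promoter window was found for 74 of the 82, and 46 of these (62.2%) held the ETS core in at least 1 window, against 37.0% of the 8869 tested genes with a window. Counted by window, the shares were 53.3% of 92 member windows, 28.6% of those of tested genes and 17.2% of all 35116 RefSeq windows. The ELK4 motif was in 17.4% of member windows, 8.23% of those of tested genes and 4.14% of all windows. The GC box was in 20.7%, 26.6% and 15.7%. A link between these words and the change after knockdown was not tested. The median log2 fold change was −0.08 over the 46 members with the ETS core and −0.08 over the 28 without it. For the ELK4 motif the medians were −0.14 over 14 genes and −0.08 over 60, and for the GC box −0.12 over 18 genes and −0.08 over 56. These matches are descriptions of letters in a window.

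The expression values are FPKM, which scale the fragments of a gene to its transcript length and to all mapped fragments of the sample. Without counts the sequencing depth is not known, and precision rests on the spread between samples. FPKM summed to between 309139 and 319870 per sample. The targeted gene ELK4 stood at 8.62 and 7.60 FPKM with pLKO against 3.14, 2.82 and 2.44 for hairpins 1 to 3, which is 34.5% of the control mean. Of 8 markers of colorectal epithelium, 6 reached an FPKM of 1 in every sample, and VIL1 and LGALS4, both markers of mature enterocytes, did not. The summed level of those 8 was 2620 and 2660 FPKM with pLKO against 1990, 1480 and 1590 for hairpins 1 to 3. KRT18, a keratin of simple epithelia, was at 639 and 634 against 397, 216 and 303. KRT8, KRT19 and CDX2 were also lower with each hairpin. EPCAM and CDH1 lay above both controls with hairpin 1 and below both with hairpins 2 and 3. EPCAM had 156 and 157 FPKM with pLKO against 166, 137 and 118, and CDH1 20.5 and 20.3 against 23.1, 10.3 and 14.7. A part of these marker differences in the results on the members was not tested. Of 7 markers of other cells, COL1A1 reached 1 FPKM (3.10 to 4.21), and CD3E and MLANA were at 0 throughout. The 10780 genes that reached 1 FPKM in 2 or more samples were compared between the groups with limma on log2(FPKM + 1). On that scale the change of weakly expressed genes is understated. In bulk RNA, fewer cells with a transcript and less of it per cell cannot be told apart. Whether the samples were separate cultures is not given in the sources used here, so the p-values measure the spread between these samples.

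All 82 members were tested, and none was listed at 0 in any sample. Their mean FPKM over the 5 samples ran from 2.06 for TFB1M to 179 for MRPL51, with a median of 35.2, against 8.51 over all tested genes. After ELK4 knockdown, HSD17B10 rose more than 2-fold with every hairpin, and it was the single member with an adjusted p under 0.05. The other 81 did not pass this limit in either direction. Among all tested genes, 0.102% were called higher and 0.0649% lower at the same limit. MRPL34 and MRPL42, the next largest increases, were at 117% and 113% of control.

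**Figure D1:**
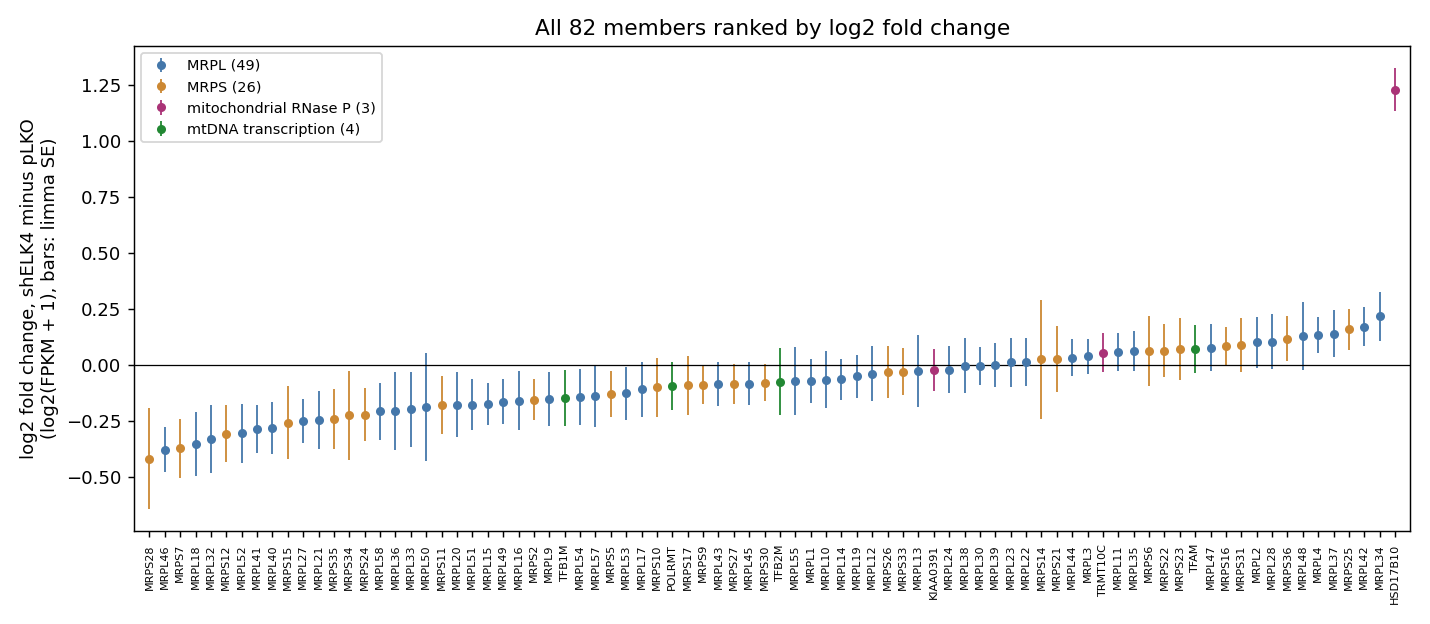
All 82 members are ranked along the x axis by their log2 fold change, shELK4 minus pLKO on log2(FPKM + 1), with limma standard errors as bars and colours for MRPL, MRPS, RNase P and transcription genes. HSD17B10 stands apart at 1.23, and the other members lie between −0.42 and 0.22.

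HSD17B10 lies on chromosome X from 53431258 to 53434370 (GRCh38, minus strand). Its level was 29.1 and 31.1 FPKM with pLKO against 73.6, 66.4 and 75.7 for hairpins 1 to 3. The groups did not overlap, and the lowest hairpin value was more than 2 times the higher control. Against the mean of the controls the fold was 2.44, 2.21 and 2.52 with the 3 hairpins. The mean went from 30.1 ± 1.38 FPKM (SD of 2 samples) to 71.9 ± 4.87 (SD of 3 samples), and limma put the log2 change at 1.23 with a 95% interval of 0.998 to 1.46 and an adjusted p = 0.0147. In p-value it ranked 5 among the 10780 genes, and in log2 fold change 6. Its place by FPKM among the 82 members moved from 48 in the controls to 10 in the knockdown samples. The adjusted p was 0.0134 without shELK4 replicate 2 but was lost without any other sample, at 0.415 without pLKO replicate 1, 0.342 without pLKO replicate 2, 0.0752 without shELK4 replicate 1 and 0.0642 without shELK4 replicate 3, while the log2 change stayed between 1.18 and 1.28. With a control left out, the spread came from the knockdown samples alone, and the lone control was assumed to vary like them. It was also lost when every gene above 0 in at least 1 sample was tested (adjusted p = 0.0746 from limma).

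The partners of HSD17B10 in RNase P did not pass the test (adjusted p = 0.791 and 0.922 from limma). TRMT10C, which methylates mitochondrial tRNA and holds the complex together with HSD17B10, had 36.2 and 37.4 FPKM with pLKO against 38.5, 36.3 and 40.1 after knockdown. Its groups overlapped, and its log2 fold change was 0.05 with a 95% interval of −0.16 to 0.26. KIAA0391, the nuclease, had 14.5 and 13.3 FPKM with pLKO against 14.3, 13.8 and 13.0 with the hairpins. Its groups overlapped too, and the interval of its log2 change was −0.25 to 0.20. FPKM is scaled by length, so the levels of the 3 subunits can be set side by side only as far as the transcript lengths used hold. The annotation that gave those lengths is not given. By FPKM, HSD17B10 stood lower than TRMT10C in each control, with ratios of 0.805 and 0.831. It stood higher in each knockdown sample, with ratios of 1.91, 1.83 and 1.89. The ratio of HSD17B10 to KIAA0391 was 2.0 and 2.33 in the controls and 5.16, 4.83 and 5.83 with the hairpins, whereas that of TRMT10C to KIAA0391 overlapped, at 2.49 and 2.81 against 2.70, 2.64 and 3.09. The log2 ratio of HSD17B10 to TRMT10C changed by 1.20 and that to KIAA0391 by 1.28. An exact permutation test with the one-sided p doubled gave p = 0.2 for each. This is the smallest value that this test can give with 2 against 3 samples, so it adds nothing to the ratios.

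**Figure D2:**
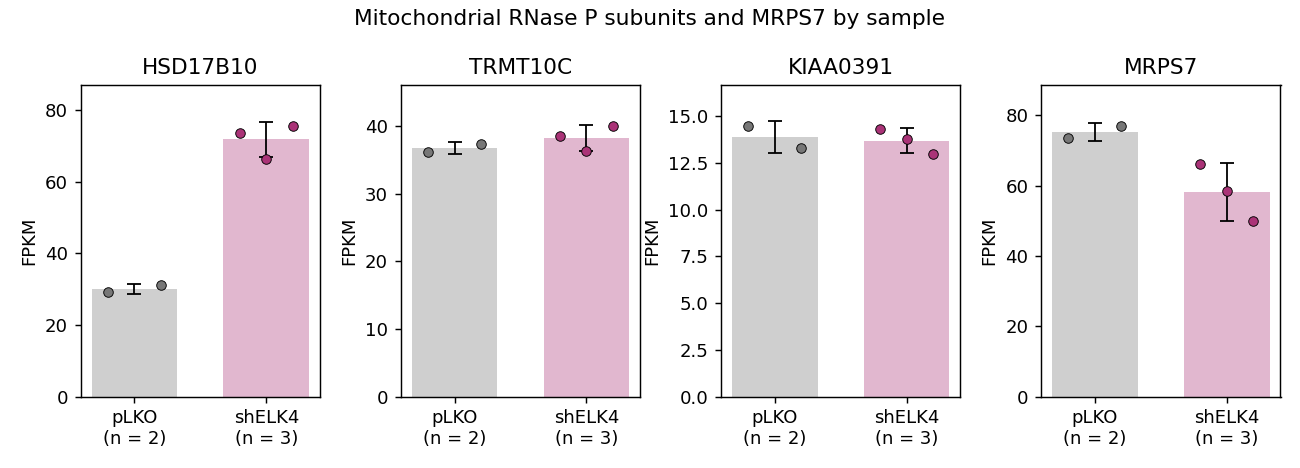
FPKM of the RNase P subunits HSD17B10, TRMT10C and KIAA0391 and of MRPS7, with each sample as a point, the group mean as a bar from 0 and the SD as an error bar (2 pLKO and 3 shELK4 samples). HSD17B10 is at 66.4 or more in every knockdown sample against 31.1 or less in the controls, TRMT10C and KIAA0391 overlap, and MRPS7 is lower with each hairpin.

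Reads that could belong to neighbours were looked at for the same genes. Exons of an annotated noncoding gene (ENSG00000233250) cover 7.73% of the exonic bases of HSD17B10, and 4.78% of its 50-base words recur in transcripts of other genes. RIBC1, the coding gene next to it on one side, was at 0.0939 FPKM or less in every sample, and HUWE1, a ubiquitin ligase gene on the other side, had 17.5 and 17 FPKM with pLKO against 18.1, 16.0 and 15.9 after knockdown (log2 fold change −0.05). For KIAA0391, 45.9% of the exonic bases are covered by other genes, PPP2R3C and a readthrough gene among them, so its level is uncertain. TRMT10C shares none.

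MRPS7, a protein of the head of the small subunit, lies on chromosome 17 from 75261674 to 75266376 (GRCh38, plus strand). It was lower with every hairpin, at 73.5 and 77.1 FPKM with pLKO against 66.3, 58.5 and 49.9 for hairpins 1 to 3. The groups did not overlap, and the hairpins were spread more widely than the controls, with 88.1%, 77.7% and 66.2% of the control mean. The mean was 75.3 ± 2.54 FPKM (SD of 2 samples) in pLKO and 58.2 ± 8.23 (SD of 3 samples) in shELK4. The log2 change was −0.37 with a 95% interval of −0.69 to −0.06. Its unadjusted p was 0.0251 and its adjusted p = 0.24, so it did not pass over all genes. Exons of GGA3, a clathrin adaptor gene, and MIF4GD, which meet MRPS7 at either end, cover 6.94% of its exonic bases. GGA3 had 11 and 11.6 FPKM with pLKO against 11.6, 11.3 and 11.5 after knockdown. MIF4GD had 4.16 and 4.04 against 4.72, 4.35 and 4.68. Neither neighbour was lower along with MRPS7.

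Set against the other 80 members within each hairpin, the 2 genes behaved differently. HSD17B10 was the highest of the 82 with each hairpin. Its difference from the control mean on log2(FPKM + 1) was 1.26, 1.12 and 1.30 for hairpins 1 to 3. The next highest member lay at 0.38 (MRPL34), 0.20 (MRPS25) and 0.46 (MRPS14), so the gap was 0.89, 0.92 and 0.84. Between the 2 controls HSD17B10 differed by 0.09, and the other members by −0.23 (MRPL18) to 0.21 (MRPL2).
MRPS7 stood within the range of the other members with the first 2 hairpins and below it with the third. Its difference was −0.18 in shELK4_1, where 20 of the 80 lay lower, and −0.36 in shELK4_2, where 19 lay lower. In shELK4_3 it was −0.58, and no other member lay lower (0 of 80). Relative to the median of the 80, MRPS7 was at −0.13, −0.19 and −0.63. MRPS7 thus held a like place among the members with the first 2 hairpins and the lowest with the third, while HSD17B10 was highest with all 3.

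**Figure D3:**
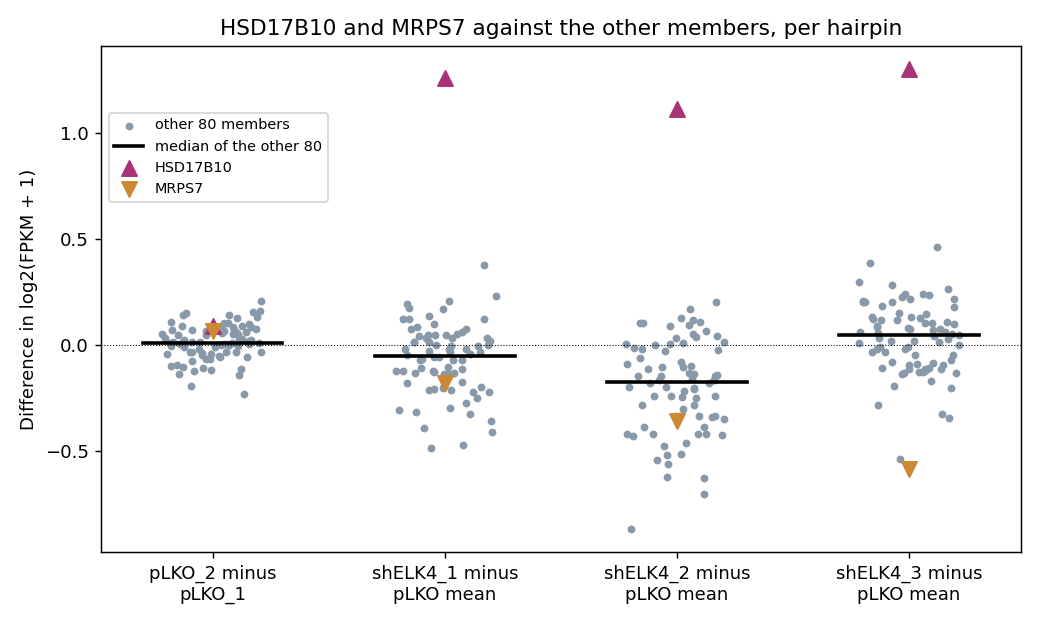
Differences in log2(FPKM + 1) for the other 80 members (grey points, bar at their median), HSD17B10 (upward triangle) and MRPS7 (downward triangle), first between the 2 controls and then for each hairpin against the mean of the controls. HSD17B10 lies above every other member with each hairpin, at 1.26, 1.12 and 1.30, and MRPS7 goes from −0.18 to −0.58.

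The rest of the genes moved by small amounts that differed between hairpins. The 80 members had a median difference of −0.05, −0.17 and 0.05 for hairpins 1 to 3, against medians over all tested genes of −0.01, −0.02 and 0.01. The median difference between the controls was 0.01. Summed over the 80, FPKM came to 95.1%, 85.2% and 101% of the mean of the controls. In shELK4_2, 60 of the 82 members (73.2%) lay below both controls and 14 above both, where 47.3% and 40.8% of all tested genes did so. In shELK4_1, 43 lay below and 22 above, beside 44.7% and 41.2% of all genes. In shELK4_3, 29 lay below and 42 above, beside 41.9% and 45.5%. The lowest of the 3 hairpin values was that of shELK4_2 for 59 of the 82 members, a share of 72%, against 39.9% of all tested genes. Subunits of either kind showed this order, with medians of −0.06, −0.20 and 0.04 for MRPL and −0.04, −0.21 and 0.04 for MRPS. The 41 members with the shorter transcripts had medians of −0.11, −0.30 and 0.00, and the 41 with the longer ones −0.02, −0.10 and 0.08. A part of transcript length in these differences was not tested.

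Across the 3 hairpins together, 56 of 82 members (68.3%) had a log2 change below 0, against 51.8% of all tested genes. Past stricter limits, the shares of members with lower values lay close to those of all genes. The shares with higher values lay under those of all genes. All 3 hairpins were below both controls for 18 members, a share of 22%, against 21.0% of tested genes. They were above both controls for 8 members, 9.76%, against 19.1%. An unadjusted p under 0.05 was reached by 7 members with lower values, 8.54%, against 8.14% of tested genes, and by 1 with higher values, HSD17B10, 1.22% against 8.08%. The median log2 fold change of the 82 was −0.08, and that of all tested genes −0.01. In place of these 7, the number with lower values was 1 without pLKO replicate 1, 0 without pLKO replicate 2, 4 without shELK4 replicate 2 and 16 without shELK4 replicate 3. Without shELK4 replicate 2 the median was −0.03, and 4 members reached the limit with higher values (2 without shELK4 replicate 3). With the replicate number as a block, where shELK4_3 adds nothing to the log2 change, 14 members reached it with lower values.

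Among the large subunit genes, 35 of 49 had a log2 change below 0 (71.4%, against 51.8% of all tested genes) and none passed the adjusted limit. An unadjusted p under 0.05 was reached by 5, all lower (10.2%, against 8.14%). MRPL46 had the lowest p of these, 0.00774, with 25.4 and 28.3 FPKM with pLKO against 20.2, 19.2 and 21.8 after knockdown (log2 change −0.38, adjusted p = 0.16 from limma). Its hairpin values lay close together and below both controls. MRPL18 had 87.4 and 74.3 FPKM with pLKO against 73.2, 61.5 and 55.2 after knockdown. Here the controls differed by more than pLKO_2 differed from shELK4_1. MRPL32, another protein of the large subunit, had 62.7 and 62.6 FPKM with pLKO against 54.4, 40.2 and 55.6 after knockdown, and MRPL52 had 6.92 and 6.57 against 5.41, 4.42 and 6.07. Both were lowest in shELK4_2 and had unadjusted p-values of 0.0664 and 0.0540. The other 3 with an unadjusted p under 0.05 were MRPL41, MRPL40 and MRPL27, named after their values were seen, at −0.29, −0.28 and −0.25 on the log2 scale.
Higher values among MRPL genes were smaller in size, and none passed. MRPL34 had 53.4 and 57.3 FPKM with pLKO against 72.1, 62.3 and 59.5 after knockdown, and MRPL42 had 41.3 and 41.0 against 47.7, 44.2 and 47.5. The groups did not overlap for either gene, and their log2 changes of 0.22 and 0.17 had adjusted p = 0.377 and 0.37 from limma. The log2 change was 0.13 for MRPL4, with no overlap, and 0.14 for MRPL37, with overlap. The most abundant members were MRPL51, at 192 ± 4.90 FPKM with pLKO against 170 ± 20.4 after knockdown (SD of 2 and 3 samples), and MRPL12 at 158 ± 6.57 and 154 ± 20.4. MRPL12 forms the stalk that recruits translation factors, and 69.5% of its exonic bases are shared with a readthrough gene. MRPL23, among the least abundant, was at 6.05 ± 0.114 and 6.12 ± 0.655 FPKM.

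Among the small subunit genes, 17 of 26 had a log2 change below 0 (65.4%, against 51.8% of all tested genes). An unadjusted p under 0.05 with lower values was reached by 2, MRPS7 and MRPS12 (7.69%, against 8.14%). MRPS12, a protein of the decoding centre, had 60.9 and 65.8 FPKM with pLKO against 47.4, 46.9 and 59.5 after knockdown. The value with shELK4_3 lay within 2 FPKM of the lower control, and its adjusted p = 0.302 from limma. MRPS28 had the lowest log2 change of all 82, −0.42, but with a standard error of 0.23 and an adjusted p = 0.403. Its values were 55.4 and 51.7 FPKM with pLKO against 51.9, 28.9 and 41.9 for hairpins 1 to 3. The low value of shELK4_2, 0.87 below the control mean on the log2 scale, lay farthest from the controls. MRPS15 showed a like order, with 62.5 and 65 FPKM with pLKO against 62.9, 42.8 and 55.6 after knockdown. MRPS35 was lowest in shELK4_1 instead, at 28.4 FPKM against 40.3 and 40.0.
MRPS14, whose level is low, spread the most, with 6.67 and 6.12 FPKM with pLKO against 7.05, 4.16 and 9.19 after knockdown, from below to above the controls. MRPS23 and MRPS24, the most abundant of this subunit, averaged 76.5 ± 0.792 and 102 ± 2.86 FPKM with pLKO against 81.0 ± 12.5 and 87.3 ± 10.4 after knockdown (SD of 2 and 3 samples). MRPS11 was the least abundant, at 3.31 ± 0.177 and 2.82 ± 0.496. The largest increases were those of MRPS25, MRPS36, MRPS31 and MRPS16, with log2 changes of 0.16, 0.12, 0.09 and 0.08 and adjusted p-values of 0.43, 0.604, 0.75 and 0.675 from limma. MRPS36, counted here by its symbol, is now known as a subunit of the 2-oxoglutarate dehydrogenase complex.

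None of the 4 genes for transcription of mitochondrial DNA passed the test, with adjusted p-values of 0.582 to 0.829 from limma. POLRMT had 47.2 and 51.8 FPKM with pLKO against 42.5, 50.8 and 45.7 after knockdown, and the interval of its log2 change was −0.35 to 0.16. TFAM had 17.6 and 16.0 FPKM against 16.0, 18 and 19.2, with an interval of −0.19 to 0.33. The groups overlapped for both genes. TFB2M had 22.6 and 21.7 FPKM with pLKO against 17.1, 23.2 and 23.1 after knockdown, low with 1 of the 3 hairpins. TFB1M had 2.32 and 2.17 FPKM against 1.97, 2.26 and 1.59, the lowest level of all 82 members. Other genes cover 38.7% of the exonic bases of TFB1M, and 22.4% of the 50-base words of POLRMT recur in other genes, its pseudogene POLRMTP1 among them, so both levels are uncertain. Such sharing concerned 20 of the 82 members at over 20% of exonic bases, and 40 shared none. Of the genes named above, MRPS25 (45.9%), MRPS28 (35.8%), MRPL51 (27.6%), MRPS24 (23.2%) and MRPL4 (21.3%) are among the 20, so their levels are uncertain too.

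Around the members, 8 lists of related mitochondrial genes were read with the same fit, 105 tested genes in all and none a member. None passed an adjusted p under 0.05 in limma (0 genes), 5 had an unadjusted p under 0.05 with higher values (4.76%, against 8.08% of all tested genes) and 7 with lower values (6.67%, against 8.14%). Of all genes tested, 51.8% had a log2 change below 0. The 8 mitoribosomal proteins with other symbols, none of them a member, had 6 values below 0 (75%) and medians of −0.09, −0.22 and 0.05 with the 3 hairpins, lowest in shELK4_2. AURKAIP1, a small subunit protein, was the lowest of them, at 72.3 and 75.5 FPKM with pLKO against 58.4, 52.9 and 65.8 after knockdown (adjusted p = 0.238 from limma), and PTCD3 was the highest, at a log2 change of 0.13.
Of 20 genes for RNA processing and decay, 17 lay below 0 (85%), 3 with an unadjusted p under 0.05 (15%, against 8.14% of all tested genes), and the medians were −0.11, −0.11 and −0.13. Here the hairpins were alike. REXO2, an exonuclease that clears short RNA fragments in mitochondria, had 50.9 and 53.7 FPKM with pLKO against 32.8, 37.2 and 37.6 after knockdown (log2 change −0.53, adjusted p = 0.0981 from limma). FASTKD1 was the highest of this list at 0.33. Of 20 assembly genes, 16 lay below 0 (80%). MPV17L2, an assembly factor of the large subunit, had 32.0 and 34.8 FPKM in the controls against 22.7, 24.8 and 22.6, and its adjusted p = 0.0997 from limma. METTL17 was highest at 0.05. Both REXO2 and MPV17L2 were lower in every hairpin than in either control.
The 13 translation factors had a median of −0.06, from TACO1 at −0.22 to C12orf65, which releases stalled ribosomes, at 0.16. The 16 aminoacyl-tRNA synthetases had one of 0.07, from YARS2 at −0.26 to RARS2 at 0.30. The 11 genes of transcription and DNA maintenance had one of 0.05, from MTERF1 at −0.21 to PRIMPOL at 0.24. The 9 regulators of mitochondrial biogenesis had one of 0.09, with GABPB1 at −0.06 and GABPA at 0.23, the subunits of an ETS factor known for nuclear genes of the respiratory chain. None of the 9 had an unadjusted p under 0.05 (0 genes). No mRNA of mitochondrial DNA was among the genes analysed here.
In isoleucine breakdown, the other pathway of HSD17B10, 8 genes were tested. ACAT1, which acts just after HSD17B10, had 17.2 and 17.2 FPKM with pLKO against 25.1, 26.2 and 19.3 after knockdown (adjusted p = 0.23 from limma). ECHS1, which acts just before it, was lower, at 40.3 and 40.9 FPKM against 31.1, 28.4 and 33.7 (adjusted p = 0.16). The neighbours of HSD17B10 in this pathway thus lay on opposite sides of the controls, and neither passed.

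**Figure D4:**
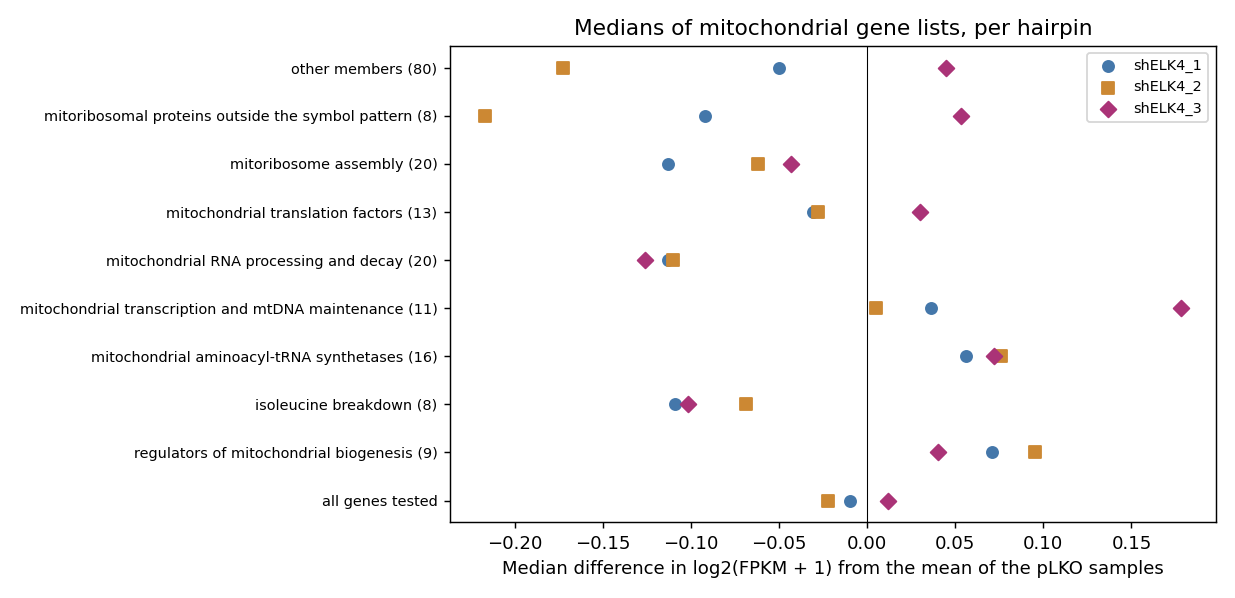
Median difference in log2(FPKM + 1) from the mean of the pLKO samples (x axis) for the other 80 members, 8 related gene lists with the number of tested genes, and all tested genes (y axis), with a symbol per hairpin. The other 80 members and the 8 mitoribosomal proteins with other symbols are lowest in shELK4_2, at −0.17 and −0.22, while the RNA processing list lies at −0.11 to −0.13 with all 3.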

How the data were processed

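RNA was extracted with TRIzol from 2 pLKO and 3 shELK4 samples of HCT116 cells, poly(A)-selected and sequenced on an Illumina HiSeq instrument. The authors deposited 1 table of FPKM values per sample, calculated with Cufflinks and scaled to the mapped reads of the sample. The submitters' processing notes list Trimmomatic 0.36, HISAT2 2.0.5, Cufflinks 2.2.1 and HTSeq 0.9.1. The genome build, annotation and strandedness are not given in the sources used here.

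Each table held 20030 entries, of which 4 with repeated names were dropped. The FPKM minimum was 1, reached in 2 or more samples, and log2(FPKM + 1) values were fitted in limma 3.58.1 under R 4.3.3 (group as the single term, trended empirical Bayes, Benjamini-Hochberg over all 10780 genes). The fit was tested on simulated data in which all genes and both groups had the same spread, so unequal spreads were not covered. The members and gene lists were chosen with earlier results of these data known, so their counts are no independent support. Genes named are HSD17B10, MRPS7 and the 6 other non-ribosomal members, the 4 largest increases and decreases and the 2 highest and lowest levels of each subunit, the extremes of each hairpin, the highest and lowest gene of each list, and the adjacent genes. Gene positions and shared words are from GENCODE release 44 (GRCh38), with 82 members matched, and promoters from RefSeq. Tables and plots were made in Python 3.11.15 with pandas 2.3.3, numpy 2.4.6 and matplotlib 3.10.9.

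Alternatives were a pseudocount of 0.1, no FPKM minimum, both, the replicate number as a block, median-of-ratios scaling, a weight for each group, and each sample left out in turn.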

Additional observations from a re-analysis of the deposited data

How the results depend on the processing

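The log2 change of HSD17B10 kept its direction under all 11 alternatives, from 1.18 to 1.28. Leaving out the FPKM minimum or weighting each group cannot move the log2 change of any gene, so these fits could not reverse it. Its adjusted p stayed under 0.05 with a pseudocount of 0.1, median-of-ratios scaling, a weight for each group, the replicate block and without shELK4 replicate 2, but not with no FPKM minimum (1.23, adjusted p = 0.0746 from limma), with that and a pseudocount of 0.1 (1.25, 0.0762), or without any other sample. No member (0) passed under these, and 0 or 1 did with a sample left out. More genes were tested without the FPKM minimum, 16223, and fewer samples in the latter fits. MRPS7 stayed lower under all 11, between −0.47 and −0.27, with an adjusted p from 0.0839 to 0.966. Members with lower values and an unadjusted p under 0.05 numbered 14 with the replicate block, 13 with a weight for each group and 0 to 16 with a sample left out, and those with higher values 2 without the FPKM minimum at either pseudocount and 1 to 4 with a sample left out. The cause of these shifts was not tested.

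Whether replicate numbers pair these samples by origin is not given in the sources used here. Samples sharing a number deviated from their group means with correlations of 0.0776 and 0.0225. The 2 controls deviate from their mean by equal and opposite amounts, so these correlations are not independent and cannot settle it. Replicate number 3 belongs to shELK4_3 alone, so in the block fit this sample adds nothing to the log2 change. The block fit therefore repeats the log2 changes found without shELK4 replicate 3 (1.19 for HSD17B10 in both), and is no separate check. It changed no call among the named genes. It reversed the small log2 changes of KIAA0391 (0.009), MRPL12 (0.005), MRPL23 (−0.025), MRPS14 (−0.198), MRPS23 (−0.028) and MRPS31 (−0.01). With a sample left out, these ranged from −0.085 to 0.034, −0.146 to 0.02, −0.034 to 0.089, −0.198 to 0.293, −0.028 to 0.193 and −0.01 to 0.142, and TFB2M from −0.148 to 0.065. In all, 299 of 319 values for 29 other named members kept their direction, and 0 came to pass. This count includes fits that cannot move a log2 change and fits that repeat another, so it overstates the agreement. Median-of-ratios scaling moved the median of all genes from −0.009 to −0.001 and gave 1 member higher and 6 lower. With no counts, detection limits cannot be set.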
